A study of Homo sapiens with 5 samples.

Results

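The effect of recombinant IL-8 given alone to sparsely seeded fibrosarcoma cells was examined in the RNA of HT1080 cells, a human fibrosarcoma line that migrates through collagen. The IL-8 library was set against the untreated low-density library (LD), and all 10622 genes with at least 10 reads summed over these 2 libraries were compared, out of 27189 entries listed for each library. Cells of passages 15 to 18 had been embedded at 10 cells per cubic mm in rat-tail type I collagen at 2 mg per ml and kept there for 24 h. LD received no cytokine, IL-6 and IL-8 received 1 recombinant cytokine each, and the library called RM received both at a ratio of 5 to 2. A high-density library (HD, 50 cells per cubic mm, no cytokine) was not compared here. Each condition was sequenced as 1 library of 1 cell line, so no difference below has a replicate check, and the dose of IL-8 in the single treatment is not given in the sources used here. The question addressed was which genes and functions differed between the IL-8 and LD libraries beyond the sampling of reads.

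IL-8, encoded by CXCL8 (listed under its older symbol IL8), is a chemokine that attracts neutrophils and that many tumours secrete. It binds the receptors CXCR1 and CXCR2, which act through inhibitory G proteins, phosphoinositide 3-kinase, phospholipase C and small GTPases on the actin cytoskeleton, and which are switched off by G-protein receptor kinases and arrestins. In tumour cells the same receptors can feed into the ERK, STAT3 and NF-kappaB pathways, and NF-kappaB in turn drives the CXCL8 gene.

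The libraries held 7118545 counted reads in LD and 5491616 in IL-8, and 76.9% and 79.6% of these fell on 1 ribosomal RNA entry, RNA5-8S5. That entry was removed, which left 1645539 reads in LD and 1120609 in IL-8. A floor of 3 reads, used in place of a count of 0, stood for 0.000182% and 0.000268% of the remainder. Median-ratio scaling set 1.81 LD reads equal to 1 IL-8 read. The identity of the cells was checked with markers. VIM, which encodes vimentin, had 10796 reads in LD and 4590 in IL-8, SPARC had 1830 and 1636, and LGALS1 had 1817 and 1581. None of the 6 mesenchymal markers tested was called, whereas NT5E was at 0 in both libraries and THY1 fell under the read filter. Although the source label speaks of epithelial cells, the epithelial markers EPCAM, CLDN3 and KRT5 were at 0 in both, and none of the epithelial, leukocyte and endothelial genes on the marker lists exceeded 4 reads in either. The keratins of simple epithelia, which were not on those lists, did have reads, with 132 in LD and 24 in IL-8 for KRT19 and 49 and 69 for KRT7.

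A gene was called when an exact binomial test of its reads in the 2 libraries gave an adjusted p below 0.05 and the scaled ratio reached 2-fold. Of the 10622 genes, 2922 or 27.5% were called, 1632 (15.4%) higher and 1290 (12.1%) lower in IL-8. A further 1579 genes passed the test with a smaller ratio and 6121 did not pass. The median fold of the genes called was 3.57 for those higher and 3.22 for those lower. There were 280 genes at least 8-fold higher and 169 at least 8-fold lower. The plot of ratio against reads shows large ratios both at low and at high read numbers. By comparison IL-6 against LD, tested in the same way and sharing the LD library, called 16.3% of 10970 genes. The exact test compares 2 libraries and covers the sampling of reads only, since amplified reads without molecular identifiers are not independent molecules, and it does not say how far 2 untreated cultures would have differed.

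**Figure D1:**
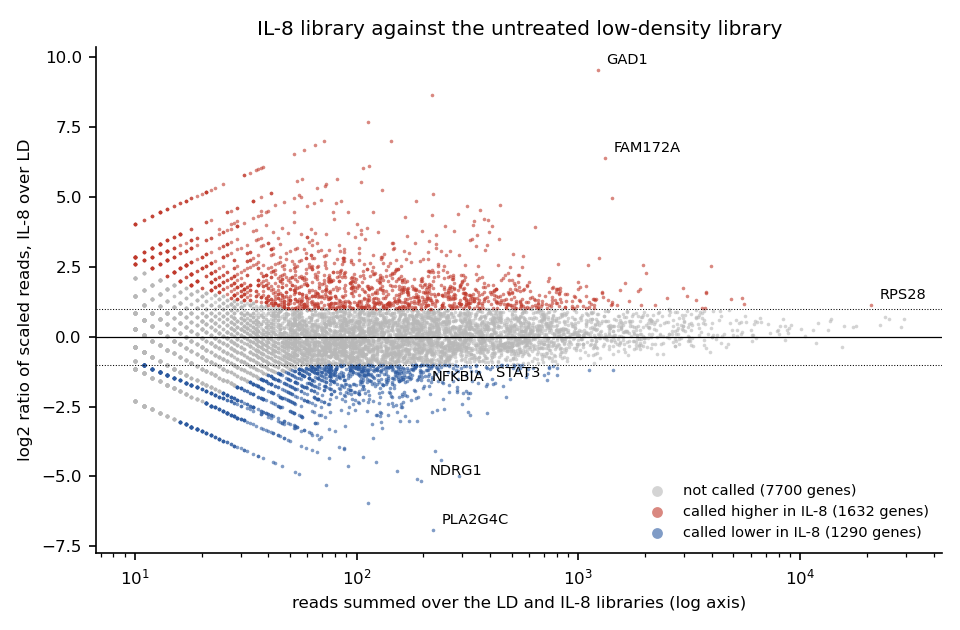
Each point is 1 of 10622 genes, with the reads summed over the LD and IL-8 libraries on a log axis and the log2 ratio of scaled reads (IL-8 over LD) on the vertical axis, where dotted lines mark 2-fold. The 1632 genes called higher (red) and 1290 called lower (blue) lie on both sides of the uncalled genes (grey), GAD1 stands at the top and PLA2G4C at the bottom, and a gene without reads in 1 library is drawn at the bound set by 3 reads.

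Scaling moved the balance between the directions. With TMM factors 1610 genes were higher and 1316 lower. When the libraries were set equal by their totals outside RNA5-8S5, 1169 genes were higher and 2059 lower, and with upper-quartile factors the numbers were 1335 and 1714. The share of called genes that were higher was thus 55.9% with median-ratio scaling, 36.2% with totals and 43.8% with upper quartiles. The median log2 ratio of all genes was -0.02, -0.32 and -0.19 under these 3 scalings, and all ratios below are relative to the median-ratio scaling.

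The 12 genes furthest above LD were led by GAD1, which encodes the glutamate decarboxylase that makes the neurotransmitter GABA. GAD1 had 0 reads in LD, 1229 in IL-8, 1 in IL-6 and 2 in RM, and was at least 743-fold higher in IL-8 than in LD. The gene FAM172A had 28 reads in LD, 1293 in IL-8, 12 in IL-6 and 23 in RM, which made it 83.7-fold higher (95% interval 57.6 to 126). In both cases the IL-8 library alone was high, and RM, which had also received IL-8, stayed near LD.

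Most of the other leading genes showed the same arrangement. DAXX, a chaperone of the histone variant H3.3, had 55 reads in IL-8 and 0 in LD, IL-6 and RM, so that it was at least 33.2-fold higher. TIGD3, a gene derived from a transposase, had 82 reads in IL-8 and 0 in the other 3 libraries. DAAM2, a formin of the Wnt planar polarity pathway, had 2 reads in LD, 141 in IL-8, 1 in IL-6 and 1 in RM, a 128-fold difference with an interval of 34.7 to 1065. KLHL22, a substrate adaptor of the cullin 3 ubiquitin ligase, had 1, 112, 8 and 1 reads in the same order, and GMPR, a GMP reductase of purine salvage, had 0, 66, 6 and 3. Altogether 9 of the 12 genes had at most 8 reads in each of LD, IL-6 and RM.

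The exceptions were FAM172A, the entry AX747517 and NXPH3. NXPH3, which encodes a secreted ligand of neurexins, had 0 reads in LD, 73 in IL-8, 0 in IL-6 and 20 in RM. Of these 4 libraries it was thus read in the 2 that had received IL-8 (HD, without cytokine, had 3 reads), at least 44.1-fold above LD in IL-8 and at least 7.62-fold above IL-6 in RM. AX747517 had 0, 107, 7 and 14 reads. The transcripts AK309441 and AX746877 had 114 and 52 reads in IL-8 and none in the other 3. AQP7P1 had 1, 218, 6 and 3 reads, and as a pseudogene of the aquaglyceroporin AQP7 it shares sequence with related copies, so its reads cannot be placed with certainty. DAXX lies in the MHC region, where reads can be divided among alternative haplotypes.

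At the other end NDRG1, a gene induced by hypoxia and by differentiation, had 195 reads in LD, 0 in IL-8, 0 in IL-6 and 95 in RM. It was at least 35.9-fold lower in IL-8 than in LD, yet at least 36.2-fold higher in RM than in IL-6. SRPK3, a kinase of splicing factors, had the same arrangement with 83, 0, 0 and 83 reads. Both genes were absent from the reads of the 2 single-cytokine libraries and present in the untreated and the combined one.

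Among the 12 genes furthest below LD, 7 had fewer than 50 reads in IL-6 and RM as well. PLA2G4C, a cytosolic phospholipase A2 that releases fatty acids from membranes, had 221 reads in LD, 1 in IL-8, 7 in IL-6 and 7 in RM, a 122-fold difference with an interval of 21.7 to 4838. INPP5D, which encodes the phosphatase SHIP1 that removes the lipid product of phosphoinositide 3-kinase, had 122, 0, 8 and 37 reads and was at least 22.4-fold lower in IL-8. RGS3, an accelerator of the GTPase activity of G-protein alpha subunits, had 233, 6, 39 and 49 reads and was 21.4-fold lower (9.70 to 59.0). For these genes LD had by far the most reads, but the 3 cytokine libraries were not always alike. INPP5D was called 5.29-fold higher in RM than in IL-6, and RGS3 had fewer reads in IL-8 than in IL-6 or RM.

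For ACBD4, which encodes an acyl-CoA binding protein, the reads were 107, 0, 6 and 4, for C1orf51 112, 1, 3 and 1, for TMCO4 68, 0, 7 and 10, and for the transcript AK056253 152, 0, 15 and 10. In contrast, 3 genes were low in IL-8 alone. NOL12, a nucleolar RNA-binding protein, had 284 reads in LD, 5 in IL-8, 147 in IL-6 and 401 in RM. TIAF1 had 187, 0, 132 and 143 reads and NOMO3 88, 0, 54 and 128. TIAF1 lies within the transcript of another gene and NOMO3 has near-identical copies, so both counts depend on how shared reads were divided.

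**Figure D2:**
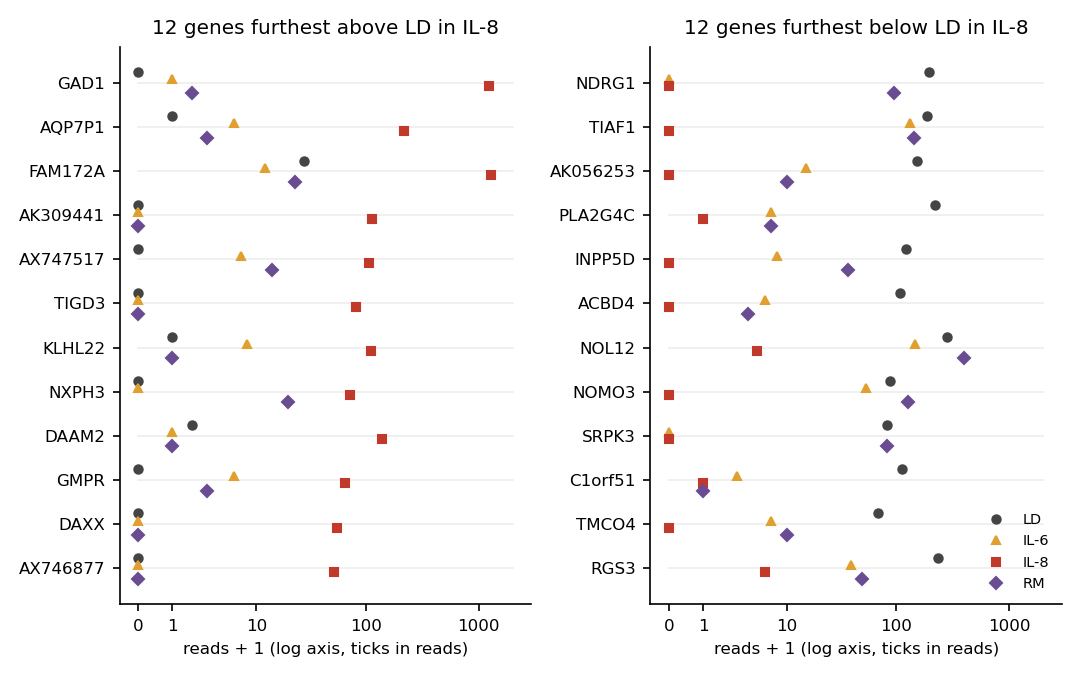
Reads plus 1 on a log axis in the LD (circles), IL-6 (triangles), IL-8 (squares) and RM (diamonds) libraries for the 12 genes furthest above and the 12 furthest below LD in IL-8, without scaling. In the left panel the IL-8 library stands to the right of the other 3 for each gene, and in the right panel 7 genes have fewer than 50 reads in IL-6 and RM while NDRG1 and SRPK3 are at 0 in IL-6 and IL-8.

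RM and IL-6 also differ by the presence of IL-8, and this pair shares no library with IL-8 and LD, so it was used as a second, separate measurement on the background of IL-6. In that pair 30.8% of 10292 genes were called, 17.5% higher and 13.3% lower in RM. Of the 1632 genes higher in IL-8 than in LD, 1397 were tested in the second pair. There 285 of them (20.4%) were higher and 228 (16.3%) lower. Of the 1290 genes lower in IL-8, 1096 were tested, 187 (17.1%) were lower and 221 (20.2%) higher. In all 472 genes were called in the same direction and 449 in opposite directions. Genes called in IL-8 against LD were thus called in the second pair at shares slightly above its background, in the opposite direction as well as in the same one.

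The 285 genes higher in both pairs were headed by a small group that, C17orf62 aside, had reads in all 4 libraries. ROGDI, mutated in a syndrome of epilepsy and enamel defects, had 26 reads in LD and 335 in IL-8, against 25 in IL-6 and 1675 in RM, so it was 23.4-fold higher in the first pair (15.7 to 36.3) and 76.6-fold higher in the second. CRTC3, a coactivator of the cAMP-responsive factor CREB, had 11 and 174 reads in the first pair and 8 and 250 in the second, 28.7-fold and 35.7-fold higher. TRIM56, a ubiquitin ligase of innate immunity, had 29, 416, 32 and 276 reads in LD, IL-8, IL-6 and RM, 26.0-fold and 9.86-fold higher. Each of these genes was high in both libraries that had received IL-8 and low in both that had not. They were chosen for being called higher in both pairs, so this arrangement follows largely from the choice.

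P2RX4, an ion channel gated by extracellular ATP, had 7 reads in LD, 84 in IL-8, 7 in IL-6 and 91 in RM. S100A3, a calcium-binding protein, had 3, 34, 13 and 209 reads. The noncoding FAM225A had 3, 33, 8 and 137, FLJ37453 had 1, 21, 5 and 669, and C17orf62 had 0, 18, 0 and 32. The 4 libraries were also fitted together with a term for IL-6 and a term for IL-8, which leaves 1 residual degree of freedom. DESeq2 then called 38 genes higher with IL-8 and 0 lower, among them 7 of these 8 genes (all but C17orf62), with an adjusted p of 2.6e-14 for ROGDI and 1.2e-08 for CRTC3. This fit used the same 4 libraries as the 2 pairs, so it is no separate support for genes chosen from them. Of the 38 genes 35 were also called higher in RM than in IL-6. The rest, FAM172A, TRMT1 and DAAM2, were high in the IL-8 library alone, so a DESeq2 call did not require both libraries with IL-8 to be high. DESeq2 gave 465 genes an unadjusted p below 0.05 and no adjusted p to 5972 genes. In the same fit edgeR's quasi-likelihood test called 0 genes, with 614 at an unadjusted p below 0.05 and a smallest adjusted p of 0.417.

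Genes lower in both pairs included RFXANK, a subunit of the RFX complex that activates MHC class II promoters, with 421 reads in LD, 52 in IL-8, 243 in IL-6 and 45 in RM. It was 4.47-fold lower in the first pair (3.34 to 6.08) and 4.72-fold lower in the second. MDGA1, a cell-surface protein of neural development, had 113, 5, 36 and 1 reads, and PRR5L, a partner of mTOR complex 2, had 51, 4, 35 and 2. EVC, a ciliary protein of hedgehog signalling, had 45, 2, 17 and 0, and C7orf41 had 47, 3, 30 and 2. MSTO2P, a pseudogene whose reads can belong to MSTO1, had 46, 0, 28 and 0. LOC285033 and LOC392364 had 27 and 26 reads in LD and 0 in IL-8. In all 8 genes the 2 libraries with IL-8 were the lowest, which follows largely from choosing genes called lower in both pairs.

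**Figure D3:**
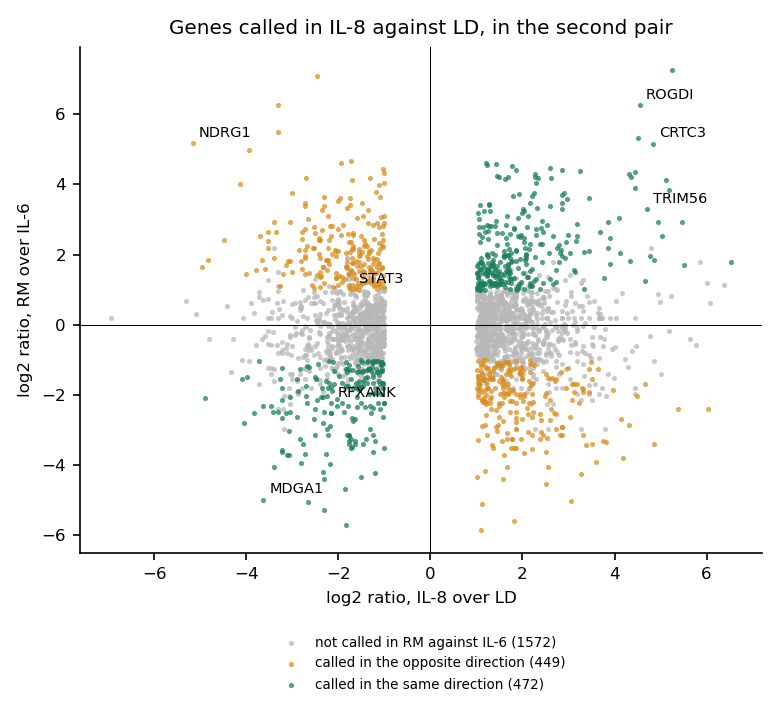
The log2 ratio of IL-8 over LD (horizontal) against that of RM over IL-6 (vertical) for the 2493 genes called in the first pair and tested in the second. The 472 genes called in the same direction (green) and the 449 called in opposite directions (orange) fill all 4 corners, ROGDI, CRTC3 and TRIM56 lie at the upper right, MDGA1 and RFXANK at the lower left, and NDRG1 at the upper left.

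The IL-8 pathway itself was sparsely read at its upper end. IL8 had 0 reads in LD, IL-8, IL-6 and RM, and so had CXCR1 and the other CXCR2 ligands CXCL1, CXCL2, CXCL3, CXCL5 and CXCL6. With RNA5-8S5 removed, a count of 0 allows a share of up to 0.000182% in LD and 0.000268% in IL-8, by counting error only. CXCR2 had 0 reads in LD, 3 in IL-8, 0 in IL-6 and 4 in RM. These counts are at the floor or next to it, and CXCR2 did not reach the 10 reads needed for a test. Of the 25 inflammatory chemokines and cytokines listed, 6 were tested. LIF, a cytokine of the IL-6 family, was 3.00-fold higher (2.18 to 4.16) with 64 reads in LD and 106 in IL-8, and IL32 was 2.70-fold lower (1.79 to 4.21) with 137 and 28. The abundant MIF, with 841 and 600 reads, was not called.

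Below the receptors, 40 of the 49 genes on a list of G-protein signalling were tested, and 3 were higher and 6 lower, 22.5% against 27.5% of all genes. The arrestin ARRB2, which uncouples and internalises the receptors, had 123 reads in LD, 7 in IL-8, 25 in IL-6 and 47 in RM and was 9.69-fold lower in IL-8 (4.57 to 24.6). ADRBK1, the receptor kinase known as GRK2, had 189, 25, 19 and 42 reads and was 4.17-fold lower (2.74 to 6.61). GRK6, another kinase of this family, had 108, 260, 35 and 79 and was 4.36-fold higher (3.47 to 5.51). Hence the genes of receptor shut-off were called in both directions. After centring by GC content, a step added after the data had been seen, the list had 4 higher and 2 lower of 39.

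The G-protein subunit GNB2 was 2.19-fold lower (588 to 148 reads), the phospholipase PLCB4 2.45-fold lower (40 to 9), the Rac effector kinase PAK1 2.10-fold lower (122 to 32) and the Src-family kinase LYN 2.48-fold lower (36 to 8). Protein kinase C alpha, PRKCA, was 4.34-fold higher (91 to 218 reads, interval 3.38 to 5.61), and the Rac activator subunit ELMO2 4.83-fold higher (6 to 16). The small GTPases themselves were not called. RAC1 had 2744 reads in LD and 2102 in IL-8, RHOA 955 and 415, and CDC42 99 and 46. The log2 ratios of RAC1, RHOA and CDC42 lay between -0.34 and 0.47.

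STAT3, the transcription factor of the IL-6 and IL-8 pathways, had 331 reads in LD, 57 in IL-8, 114 in IL-6 and 203 in RM. Before scaling, LD thus had the most reads of STAT3 and IL-8 the fewest. It was 3.20-fold lower in IL-8 than in LD (2.41 to 4.32) and 2.04-fold higher in RM than in IL-6. The rise in RM depended on the processing, since the deposited TPM of STAT3 was 38.37 in IL-6 and 30.05 in RM. On the list of IL-6 receptors, Janus kinases and STATs, 3 of 19 genes tested were higher and 2 lower, 26.3% against 27.5% of all genes. TYK2, a Janus kinase, was 3.28-fold higher (202 to 366 reads), IL11RA, a receptor of the IL-6 family, 2.69-fold higher (35 to 52), and OSMR, the oncostatin M receptor, 2.94-fold lower (64 to 12). IL6ST, the shared signal transducer gp130, had 70 reads in LD and 29 in IL-8, and IL6R had 9 in each. Their ratios of IL-8 over LD were 0.751 and 1.81, with intervals that included 1. JAK2 had 1 and 5 reads and IL6 0 in both.

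Genes of the NF-kappaB pathway were called at the highest share among the lists with more than 12 members tested, 10 of 17 or 58.8% against 27.5% of all genes, with 6 higher and 4 lower. The list had a median of 78 reads over both libraries, against 66 over all genes tested, and a median GC content of 59.0%. All genes with 47 to 97 reads were called at 36%, and those in the highest GC class (58.3 to 73.8%) at 34.9%. The inhibitor NFKBIA, which holds NF-kappaB in the cytoplasm and is itself one of its first targets, had 173 reads in LD, 27 in IL-8, 50 in IL-6 and 150 in RM. It was 3.54-fold lower in IL-8 than in LD (2.35 to 5.52) and 3.43-fold higher in RM than in IL-6. A second inhibitor, NFKBIB, had 56, 156, 46 and 29 reads and was 5.05-fold higher (3.70 to 6.98). The 2 inhibitors were thus called in opposite directions.

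Among the subunits RELA was 3.39-fold higher (188 to 352 reads, interval 2.83 to 4.07) and RELB 4.78-fold lower (26 to 3, interval 1.47 to 24.7), whereas NFKB1 and NFKB2 were not called. Upstream, MAP3K14, the kinase of the noncanonical branch, was 4.25-fold higher (38 to 89), the adaptor TRAF2 7.25-fold higher (4 to 16), and the kinases IKBKB and MAP3K7 were 2.32-fold (63 to 15) and 2.92-fold lower (37 to 7). The target TNFAIP3, a ubiquitin-editing brake on the pathway, had 3 reads in LD, 19 in IL-8, 2 in IL-6 and 0 in RM, and the coactivator BCL3 had 3, 18, 8 and 8. TNFAIP3 and BCL3 rest on 3 reads in LD, and their intervals ran from 3.38 to 60.6 and from 3.17 to 57.6.

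The promoters of the list were read because NFKBIA and TNFAIP3 are textbook targets of NF-kappaB and were called in opposite directions. In RefSeq promoters (GRCh38.p14) of 14 tested members, the kappaB consensus of 10 letters, searched on both strands of the 250 bases before the start site, occurred in 3, or 21.4%, and in 5.21% of all 35116 promoters. Those 3 were NFKBIA, TNFAIP3 and NFKB1. They are shown as 40 bases from chr14:35404806-35404845 (minus strand), chr6:137867177-137867216 (plus strand) and chr4:102501295-102501334 (plus strand), with matches in capitals.
NFKBIA: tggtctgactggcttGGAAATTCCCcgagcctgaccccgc
TNFAIP3: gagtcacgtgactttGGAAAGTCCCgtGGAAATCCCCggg
NFKB1: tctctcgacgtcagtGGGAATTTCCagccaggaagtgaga
A match describes the sequence and does not mark a bound site. With 1 lower, 1 higher and 1 uncalled gene, promoters holding the motif had no common direction.

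Immediate early genes and the ERK cascade were called in both directions. Of 16 AP-1 and immediate early genes 2 were higher and 2 lower, 25% against 27.5% of all genes. SRF, the serum response factor, was 3.02-fold higher (153 to 255 reads) and also higher in RM than in IL-6 (639 against 192). EGR1 was 3.62-fold higher (17 to 34), MYC 6.44-fold lower (35 to 3, interval 2.03 to 32.7) and the endothelial factor KLF2 2.18-fold lower (79 to 20). Of 26 genes of the RAS, RAF and ERK cascade 3 were called (11.5%), among them the kinase ARAF, 2.62-fold higher (85 to 123), and the scaffold KSR1, 4.61-fold higher (11 to 28). Among 13 receptor tyrosine kinases ERBB2 was 2.67-fold higher (76 to 112) and EPHB4 2.69-fold lower (127 to 26).

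Genes of cell movement were called in both directions. Of 51 genes tested for Arp2/3, WAVE and actin assembly, 4 were higher and 4 lower, 15.7% against 27.5%. This list had a median of 404 reads over both libraries, and all genes with at least 252 reads were called at 19.9%. GSN, the actin-severing protein gelsolin, had 368 reads in LD, 710 in IL-8, 302 in IL-6 and 209 in RM and was 3.50-fold higher (3.08 to 3.98). FMNL2 and FMNL3, formins that lengthen actin filaments at the leading edge, were 2.91-fold and 2.52-fold higher, with 155 to 249 and 141 to 196 reads. CFL2, a cofilin, was 4.86-fold lower with 44 to 5 reads. The Arp2/3 subunit ARPC5 was 2.02-fold lower (154 to 42) and the WAVE subunit ABI1 2.83-fold lower (41 to 8).

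ACTR2 and ACTR3, which encode the actin-related pair at the core of the Arp2/3 complex, had 133 and 179 reads in LD and 46 and 60 in IL-8. They were 1.60-fold (1.13 to 2.28) and 1.65-fold lower (1.22 to 2.24) and did not reach 2-fold. WASF3 had 21 reads in LD, 4 in IL-8, 2 in IL-6 and 15 in RM, a 2.90-fold lower value whose interval of 0.98 to 11.6 included 1. None of 18 myosins, tropomyosins and related contractile genes was called, against 27.5% of all genes. This list had a median of 2049.5 reads over both libraries. Of all 471 genes with at least 1000 reads, 10.8% were called higher and 0.425% lower. The log2 ratios of the contractile list ran from -0.86 in ROCK2 to 0.92 in MYL6.

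Adhesion and matrix genes were called in both directions. Among 27 integrin and focal adhesion genes tested, 2 were higher and 2 lower, 14.8% against 27.5% of all genes. Their median was 316 reads over both libraries, and all genes with at least 252 reads were called at 19.9%. ITGB4 was 3.93-fold higher (6 to 13 reads), FERMT1, a kindlin, 2.02-fold higher (52 to 58), ITGA4 3.03-fold lower (33 to 6) and ITGA7 had 11 reads in LD and 0 in IL-8. ITGB1, the beta chain shared by collagen receptors, had 343 and 241 reads and was not called. Of 20 matrix proteases and inhibitors tested, 20% were called. MMP17 was 7.64-fold higher (14 to 59, interval 4.21 to 14.8), TIMP3 2.68-fold higher (46 to 68), ADAM10 2.33-fold lower (59 to 14) and MMP16 had 17 reads in LD and 0 in IL-8. The collagenase MMP14, with 1168 and 669 reads, and MMP2, with 696 and 468, were not called.

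Among 43 collagens and matrix proteins tested, 5 were higher and 4 lower, 20.9% against 27.5% of all genes. COL1A2 had 42 reads in LD, 151 in IL-8, 33 in IL-6 and 28 in RM and was 6.52-fold higher (4.60 to 9.41), whereas COL1A1, which encodes the partner chain of type I collagen, had 153, 41, 141 and 58 and was 2.06-fold lower (1.45 to 2.98). The 2 chains of the same protein were called in opposite directions. LAMB2, a laminin chain, was 5.71-fold higher (60 to 189) and COL6A2 3.18-fold higher (125 to 219). COL12A1 had 1 read in LD and 20 in IL-8. Of 12 genes of mesenchymal and epithelial state, SNAI1 was 4.14-fold lower (30 to 4), CDH11 2.31-fold lower (117 to 28) and TWIST2 14.2-fold higher (7 to 55, interval 6.47 to 37.1), so SNAI1 and TWIST2, both transcription factors of the mesenchymal state, were called in opposite directions.

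In the cell cycle, 9 of 51 replication genes were higher and 5 lower, and 11 of 60 mitotic genes were higher and 5 lower. These shares, 27.5% and 26.7%, were those of genes in general (27.5%). LIG1, the replicative DNA ligase, was 2.69-fold higher (250 to 371 reads, interval 2.29 to 3.17), MCM7, a subunit of the replicative helicase, 2.45-fold (503 to 681) and the licensing factor CDT1 3.70-fold (23 to 47). PLK1, a mitotic kinase, was 2.52-fold higher (265 to 369), and UBE2S, which extends ubiquitin chains for the anaphase-promoting complex, was 2.56-fold higher (2019 to 2852, interval 2.42 to 2.71) and higher again in RM (1674) than in IL-6 (879). In the opposite direction FOXM1, a transcription factor of mitotic genes, was 4.08-fold lower (266 to 36, interval 2.87 to 5.95) and CCNE1, the cyclin of S-phase entry, at least 5.52-fold lower (30 to 0). AURKB was 2.52-fold higher in IL-8 than in LD with 131 and 182 reads, but had 73 in IL-6 and 6 in RM.

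Among lists with 12 or more members tested, replication-dependent histones had the largest share of higher genes, 6 of 12 (50.0%) against 15.4%, and none was lower. HIST1H2AH had 39 reads in LD and 136 in IL-8 (6.32-fold, 4.40 to 9.27), HIST1H2BC 6 and 27, HIST1H4C 138 and 200 and HIST1H1C 270 and 302. HIST1H2AH and HIST1H4C were also higher in RM than in IL-6. These transcripts lack a poly-A tail and the libraries were primed with oligo-dT, and the histone copies share sequence, so both their capture and the division of their reads are uncertain. Of 26 p53 targets and cell-cycle arrest genes tested, 4 were higher and 1 lower, 19.2% against 27.5% of all genes. RB1 was 13.3-fold higher (15 to 110, interval 7.72 to 24.6) and had 8 reads in IL-6 and 8 in RM. BTG2 was 9.76-fold higher (13 to 70), but had 36 reads in IL-6 and 9 in RM.

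**Figure D4:**
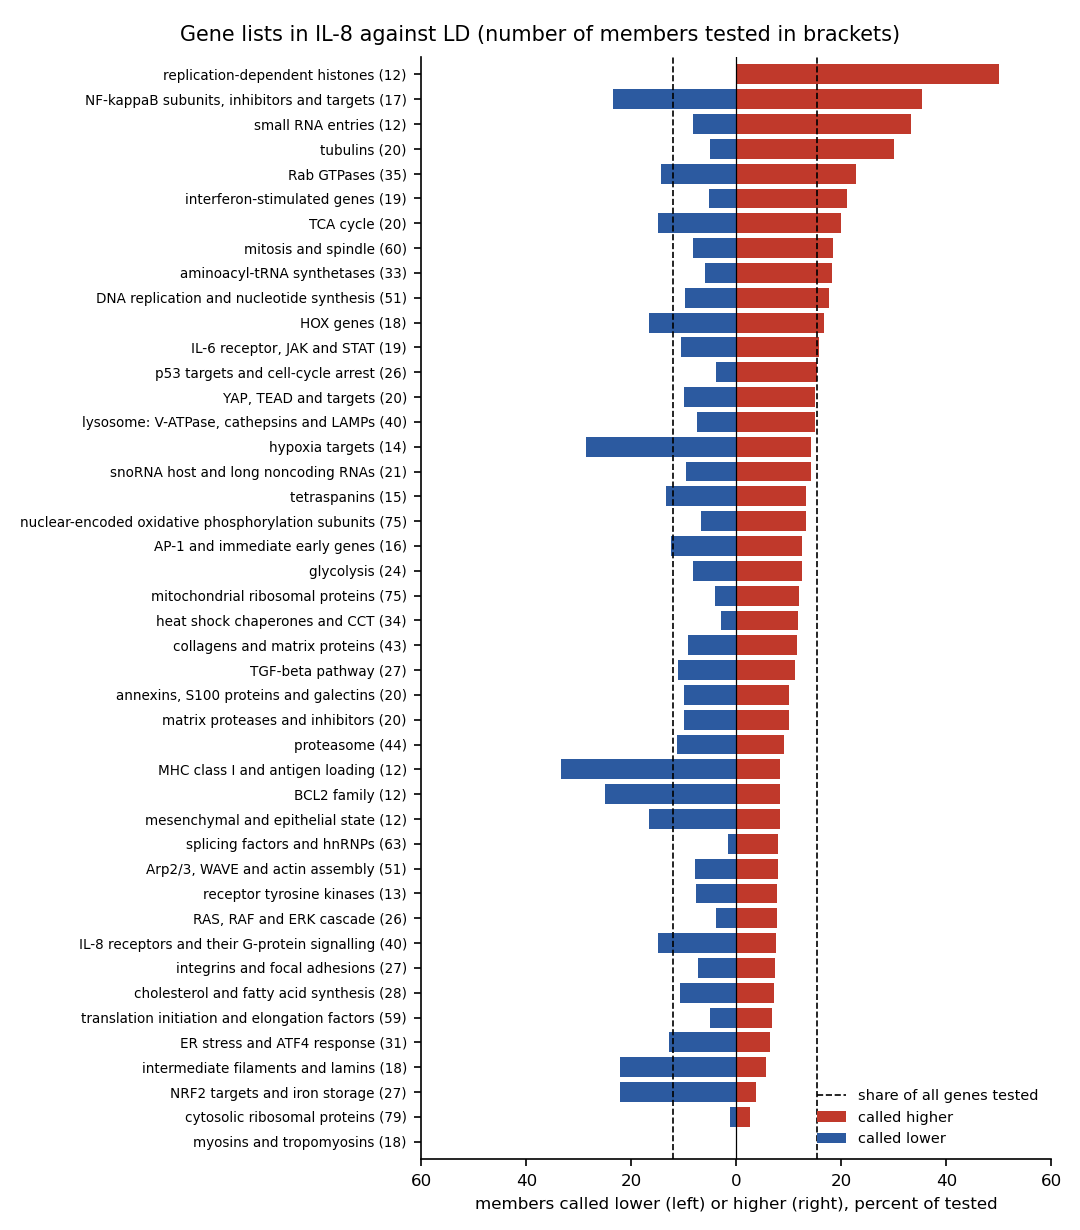
Bars give, for each of 44 gene lists with 12 or more members tested (number in brackets), the percent of members called higher (right, red) and lower (left, blue) in IL-8 than in LD, and dashed lines mark the shares over all genes, 15.4% and 12.1%. Histones reach 50.0% higher with none lower, the NF-kappaB list extends beyond the line on both sides, and myosins and tropomyosins have no bar.

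Of the metabolic lists, 4 of 20 TCA cycle genes were higher and 3 lower, 3 of 24 glycolysis genes were higher and 2 lower, and 10 of 75 oxidative phosphorylation subunits were higher and 5 lower. The shares called were 35%, 20.8% and 20%, against 27.5% of all genes. IDH3G, a subunit of isocitrate dehydrogenase, was 3.52-fold higher (200 to 388 reads) and PDHA1, of pyruvate dehydrogenase, 4.65-fold (30 to 77). NDUFA2 of complex I was 3.36-fold higher (289 to 536) and higher in RM (903) than in IL-6 (248), while NDUFA10 of the same complex was 4.87-fold lower (106 to 12). The glucose transporter SLC2A1 was 2.28-fold lower (99 to 24). Of 14 hypoxia targets tested, 4 were lower and 2 higher (42.9%). Besides NDRG1, the lower ones included the mitophagy receptor BNIP3L, 2.62-fold (256 to 54), and the MYC antagonist MXI1, 3.95-fold (43 to 6), whereas BHLHE40 was 2.81-fold higher (261 to 404).

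Of 27 targets of NRF2, the regulator of the antioxidant response, 6 were lower and 1 higher, 25.9% against 27.5% of all genes. SLC7A11, the cystine transporter, was 3.28-fold lower (113 to 19 reads, interval 2.01 to 5.65), TXN, thioredoxin, 2.28-fold lower (227 to 55) and SRXN1, sulfiredoxin, 2.61-fold lower (123 to 26), while PIR was 3.02-fold higher (63 to 105). Of 12 genes of MHC class I and antigen loading, 4 were lower and 1 higher, 41.7% against 27.5%, and after GC centring 2 were lower and 1 higher, without B2M. B2M, the light chain of all class I molecules, was 2.12-fold lower (588 to 153, interval 1.77 to 2.55), the trimming peptidase ERAP2 4.86-fold lower (44 to 5), HLA-C at least 3.68-fold lower (20 to 0) and HLA-E 4.70-fold higher (27 to 70). The HLA genes are polymorphic and share sequence, so their reads are placed with less certainty. Among interferon-stimulated genes IFI27 was 16.3-fold higher (10 to 90) and IRF9, a partner of STAT2, at least 5.33-fold lower (29 to 0).

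The lists of protein synthesis were called at shares below the 27.5% of all genes, 3.80% for cytosolic and 16.0% for mitochondrial ribosomal proteins, 11.9% for translation factors and 24.2% for aminoacyl-tRNA synthetases. The share called varied with read number, from 36% of genes with 47 to 97 reads over both libraries to 19.9% of those with at least 252. Median reads were 1376 for cytosolic and 89 for mitochondrial ribosomal proteins, 308 for translation factors, 149 for synthetases and 348 for splicing factors. Of 79 cytosolic ribosomal protein genes tested, RPS28 (9469 to 11397 reads, 2.18-fold) and RPSA (1698 to 1900, 2.03-fold) were higher and RPS29 lower (78 to 18, 2.39-fold). RPS28 and RPSA were also higher in RM than in IL-6. Ribosomal protein genes have many processed pseudogenes with which reads can be exchanged. EIF6, a factor that keeps the ribosomal subunits apart, was 2.97-fold higher (1420 to 2327, interval 2.78 to 3.18), 1 of 7 called among 59 translation factors. Of 63 splicing factors 5 were higher and 1 lower (9.52%), and SNRNP200, a helicase of the U5 particle, was 3.58-fold higher (197 to 389).

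Organelle and transport genes were called in both directions, and their shares are to be read against 27.5% of all genes. Of 20 tubulin entries 6 were higher and 1 lower (35.0%), with TUBA1A 2.38-fold (615 to 809 reads) and TUBB2A 3.08-fold higher (99 to 168), and tubulin paralogs can share reads. Of 40 lysosomal genes 6 were higher and 3 lower (22.5%). CTSD, cathepsin D, was 2.58-fold higher (2262 to 3218, interval 2.44 to 2.72) and ATP6V0B, of the proton pump, 2.74-fold (1230 to 1862), while CTSZ was 5.13-fold lower (93 to 10). Of 35 Rab GTPases 8 were higher and 5 lower (37.1%), led by RAB43, 5.77-fold (33 to 105), and RAB6B, 5.34-fold (39 to 115). Of 44 proteasome genes 4 were higher and 5 lower (20.5%). HOXB6 was 16.1-fold higher (34 to 302) and HOXC5 17.7-fold lower (64 to 2, interval 4.69 to 149), 2 of 6 HOX genes called among 18 (33.3%).

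Among the most read genes the calls were mostly in 1 direction. Of 471 genes with at least 1000 reads over both libraries, 51 (10.8%) were higher and 2 (0.425%) lower, against 15.4 and 12.1% of all genes. With totals outside RNA5-8S5 the numbers were 30 and 5. TRMT1, a tRNA methyltransferase, had 79 reads in LD, 1342 in IL-8, 113 in IL-6 and 183 in RM and was 30.8-fold higher (24.5 to 39.1). KIF1C, a kinesin, had 948, 3030, 727 and 732 reads (5.79-fold), TADA3, a subunit of histone acetyltransferase complexes, 457, 1490, 267 and 327 (5.91-fold), and CD2BP2, a spliceosomal protein, 252, 981, 310 and 215 (7.06-fold). In these genes, named after their values were seen, the IL-8 library alone was high. Others of the 51, among them TNFRSF12A, UBE2S, LSM7 and OS9, were also called higher in RM than in IL-6, and the rest were not called so. The 2 lower genes were the mitochondrial NIPSNAP1 (899 to 215, 2.31-fold) and the proteasome subunit PSMB4 (1152 to 280, 2.27-fold).

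The share of genes called higher rose with the GC content of the transcript, and that called lower did not. In 5 equal classes, from the lowest GC content (30.2 to 41.3%) to the highest (58.3 to 73.8%), 6.66, 11.1, 14.4, 20.3 and 22.3% were called higher in IL-8 and 12.6, 11.5, 12.1, 12.2 and 12.5% lower. The median GC content was 59.0% for the NF-kappaB genes, 57.3% for the histones and 57.8% for the tubulins. After the ratios had been centred within 10 GC classes, a step added once this relation had been seen, 1390 of 9540 genes were higher and 1089 lower. The NF-kappaB list then had 6 higher and 3 lower of 17, the histones 3 higher of 12 and the tubulins 3 higher and 1 lower of 19. Of 227 named genes with a GC value 20 lost their call in this step, among them the signalling genes PLCB4, PAK1 and LYN, the actin genes ARPC5 and ABI1, and ADAM10, ITGB4, CDH11, HIST1H1C, MAP3K7, RPS28, TXN and B2M. The actin list then had 4 higher and 2 lower of 51. The same rise with GC was seen in RM against IL-6, from 8.62 to 25.1%, and in IL-6 against LD, from 3.77 to 13.2%. In a bulk library, fewer cells expressing a gene and less RNA of that gene per cell cannot be told apart.

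**Figure D5:**
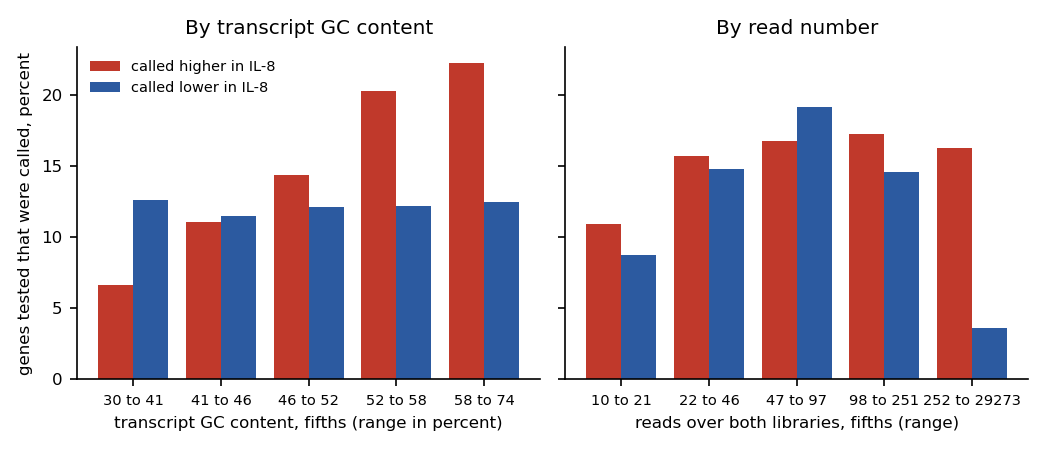
Percent of tested genes called higher (red) and lower (blue) in IL-8 than in LD, in 5 classes of transcript GC content (left) and of reads over both libraries (right). The red bars rise from 6.66 to 22.3% with GC content while the blue bars stay between 11.5 and 12.6%, and in the class with the most reads the share called lower is 3.63%.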

How the data were processed

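HT1080 cells in collagen were profiled in 5 conditions with 1 library each. RNA was reverse-transcribed from oligo-dT, the cDNA pool was amplified with phi29 polymerase and tagmented, and 50-base single-end reads were sequenced. The authors aligned them with Bowtie2 and quantified genes with RSEM. The submitters' processing notes name GRCh37/hg19, Bowtie2 2.3.1 and RSEM 1.2.25. The deposited counts are whole reads per gene without normalization, and the deposited TPM values are corrected for transcript length and library total by the authors. Amplified reads were not collapsed to molecules, which can inflate differences.

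RNA5-8S5 was removed, genes with at least 10 reads over both libraries were kept, and median-ratio scaling was applied. Each gene was tested with a two-sided exact binomial test of its reads, with Benjamini-Hochberg adjustment over all genes tested and Clopper-Pearson intervals at 95%, and called at an adjusted p below 0.05 and 2-fold. A gene at 0 in 1 library was given a bound from 3 reads in that library, which is what "at least" marks. The near end of the 95% interval of such a gene is a smaller fold than this bound. Since each condition has 1 library, edgeR 4.0.16 and DESeq2 1.42.0 were run as alternatives, on these libraries with an assumed biological coefficient of variation and on 4 libraries with additive terms. Other scalings, filters, thresholds and log2(TPM + 1) were also tried.

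Genes named are the 12 in each direction with the largest near bound of the interval, up to 8 per direction called in both pairs, 11 pathway genes, and up to 4 called members of each of 53 lists. A further 23 genes, among them NFKBIA, RELA, GNB2, TRMT1 and KIF1C, were named after their values were seen, as were uncalled genes given for comparison. The genes, lists and comparisons were chosen with earlier results of these data known. GC content came from GENCODE 29 transcripts matched by symbol (89.8% of genes). The scripts were tested on simulated data. HD was left out of the comparisons because it also differs in cell density. Results for some genes are not reported here.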

Additional observations from a re-analysis of the deposited data

Results flagged for a closer look

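For 34 of 238 named genes the call in IL-8 against LD and the call in RM against IL-6 went in opposite directions, although both pairs differ by IL-8. Of all 2493 genes called in the first pair and tested in the second, 449 went in opposite directions and 472 in the same. Some of the named genes had been chosen for the same direction in both pairs. The difference between the 2 ratios was not tested.

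Of these genes 21 were lower in IL-8 than in LD and higher in RM than in IL-6. Their log2 ratios of RM over IL-6 were 5.18 for NDRG1, 4.98 for SRPK3, 4.01 for HOXC5, 3.75 for SMAD1, 3.26 for CTSZ, 2.42 for IRF9, 2.40 for INPP5D, 2.24 for IL32, 1.95 for SNAI1, 1.84 for RELB, 1.78 for NFKBIA, 1.78 for OSMR, 1.64 for NOL12, 1.47 for SLC2A1, 1.44 for NOMO3, 1.34 for ADRBK1, 1.33 for KRT79, 1.15 for POMP, 1.10 for ARRB2, 1.07 for ARPC5 and 1.03 for STAT3. The values of NDRG1, SRPK3 and IRF9, which had 0 reads in IL-6, are bounds. In the deposited TPM values only STAT3 of these genes was lower in RM (30.05) than in IL-6 (38.37). Several others differed by less than 2-fold there, among them ADRBK1 (5.6 in IL-6 and 8.8 in RM), KRT79 (7.02 and 10.97) and POMP (34.78 and 47.88). The same held for ARRB2 (13.79 and 19.79) and ARPC5 (35.68 and 46.79). SMAD1, a mediator of BMP signalling, had 29 reads in LD, 2 in IL-8, 13 in IL-6 and 153 in RM.

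The other 13 were higher in IL-8 than in LD and lower in RM than in IL-6. Their log2 ratios of RM over IL-6 were -3.71 for PIR, -3.41 for AURKB, -3.13 for KSR1, -3.06 for LARS2, -2.91 for TRAF2, -2.89 for ALDOC, -2.54 for HSPA1A, -2.41 for VARS, -1.81 for BTG2, -1.61 for BHLHE40, -1.29 for TSPAN9, -1.27 for TEAD4 and -1.21 for MRPS24. The value of HSPA1A, with 0 reads in RM, is a bound, and those of PIR, KSR1 and ALDOC rest on 1, 1 and 2 reads in RM. VARS, the valyl-tRNA synthetase, had 3 reads in LD, 69 in IL-8, 73 in IL-6 and 12 in RM. VARS and HSPA1A lie in the MHC region, and HSPA1A has a near-identical copy, so their reads are placed with less certainty.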

How the results depend on the processing

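The numbers of genes higher and lower (1632 and 1290) depended most on the spread between cultures that was assumed, since 1 library per condition gives none. The number called in the same direction in both pairs (472) was not computed under such an assumption. edgeR with an assumed variation of 0.4 called 219 higher and 82 lower, and with 0.2 it called 1209 and 836. In the additive fit of 4 libraries edgeR's quasi-likelihood test called 0 and 0, at a fitted biological coefficient of variation of 0.506, and DESeq2 called 38 and 0. Totals outside RNA5-8S5 gave 2059 lower and 734 in both pairs, where 516 were opposite. A 4-fold threshold gave 704 higher, 482 lower and 121 in both, an adjusted p below 0.001 gave 611 lower and 275 in both, and a 1.5-fold threshold gave 888 in both against 698 opposite. The pairs IL-8 against IL-6 and RM against LD, which also share no library, gave 487 genes in the same and 381 in opposite directions. In IL-8 against LD, none of 238 named genes changed direction while called with the other 3 scalings, the TPM values or edgeR at 0.4. Nor did any of the 227 with a GC value after GC centring. The ratios of named genes in RM against IL-6 were not checked in this way, and that of STAT3 reversed in TPM. The call was lost by 21 named genes with totals outside RNA5-8S5, by 13 with upper-quartile factors and by 1 with TMM factors. With the deposited TPM values 40 lost the 2-fold difference, and with edgeR at 0.4, 173 lost the call. Depth limits genes of few reads, and differences under 2-fold were not called. No paired analysis was possible because each condition has 1 library and the labels carry no replicate numbers.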
